A study of Homo sapiens with 3 samples.

Results

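The NMDA receptor genes are the 7 human genes GRIN1, GRIN2A, GRIN2B, GRIN2C, GRIN2D, GRIN3A and GRIN3B. Their accessible chromatin was read from an ATAC-seq peak list of KOLF2.1J-hNGN2 neurons, made from the established human induced pluripotent stem cell line KOLF2.1J with the neurogenic factor NGN2 and taken at day 14 of differentiation. ATAC-seq uses the Tn5 transposase to tag open DNA, and a summit is the position in an accessible region where most tags pile up. The series holds 3 biological replicates of this 1 group, combined by its authors into a single list, so no spread between replicates can be given, no untreated or other group stands beside it, and every value describes 1 cell line at 1 time. The labels do not say what drives NGN2, and the purpose of the series was to nominate regulatory elements of the tau gene MAPT.

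A region was taken for a gene when a summit lay in the RefSeq gene body (GRCh38.p14) or within 50 kb of its outer ends. This gave 59 regions with 147 summits in all, out of 65234 regions with 145092 summits in the list. GRIN2B had 21 regions, GRIN2A and GRIN2D 8 each, GRIN3A 7, GRIN1 and GRIN3B 6 each, and GRIN2C 3. Of the 59, 33 had their strongest summit in the gene body and 26 in the flanks. Most of the intragenic regions belonged to the pair of long GluN2 genes: GRIN2B held 19 and GRIN2A held 8, together 27 of the 33.

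NMDA receptors are glutamate-gated cation channels that let calcium into the postsynaptic cell when glutamate and a co-agonist, glycine or D-serine, are bound and depolarisation has expelled the magnesium that blocks the pore. Every receptor contains the GluN1 subunit, encoded by GRIN1, assembled with GluN2 subunits (GRIN2A to GRIN2D) that bind glutamate or with the glycine-binding GluN3 subunits (GRIN3A, GRIN3B). In cortical development GluN2B is abundant early, and GluN2A joins and partly replaces it as synapses mature. GluN2C is known best from the cerebellum, and GluN2D and GluN3A are known as early, developmentally regulated subunits.

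Sequences at the listed starts are shown first, with the summits that fell in them, because the shape of the start region differed between members. Each is written 5′ to 3′ on the strand of the gene, from RefSeq promoter windows in GRCh38.p14 that run from 250 bases before to 50 bases after a listed start. Of the 7 genes, 5 matched this table, with 7 listed starts in all, and GRIN1 and GRIN2C had no entry. The 250 bases before the start are given for GRIN2B (outermost start, chr12:13982135-13982384, minus strand), GRIN3A (chr9:101738648-101738897, minus strand) and GRIN3B (chr19:1000169-1000418, plus strand). The capitals mark the 11 bases centred on a summit.
GRIN2B outer start: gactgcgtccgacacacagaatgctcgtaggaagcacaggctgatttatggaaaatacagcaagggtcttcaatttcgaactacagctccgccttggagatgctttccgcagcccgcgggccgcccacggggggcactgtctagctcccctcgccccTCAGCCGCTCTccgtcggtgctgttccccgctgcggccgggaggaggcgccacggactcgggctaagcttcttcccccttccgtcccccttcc
GRIN3A: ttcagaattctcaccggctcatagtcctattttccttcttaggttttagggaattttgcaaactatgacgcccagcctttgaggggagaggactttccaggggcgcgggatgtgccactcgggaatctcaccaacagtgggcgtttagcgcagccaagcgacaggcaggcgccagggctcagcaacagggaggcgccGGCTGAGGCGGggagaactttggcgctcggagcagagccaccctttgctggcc
GRIN3B: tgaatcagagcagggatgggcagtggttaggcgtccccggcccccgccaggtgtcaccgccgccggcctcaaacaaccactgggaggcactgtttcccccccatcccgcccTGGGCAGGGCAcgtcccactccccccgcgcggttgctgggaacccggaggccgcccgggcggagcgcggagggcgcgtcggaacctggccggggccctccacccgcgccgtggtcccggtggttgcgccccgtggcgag

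For starts inside a gene, or overlapped by another gene, only a short stretch is given. The GRIN2B stretch at its innermost listed start (chr12:13980796-13980824, minus strand) and the GRIN2D stretch (chr19:48393681-48393710, plus strand) again have the 11 bases at the summit in capitals. In the GRIN2A stretch (chr16:10182062-10182091, minus strand) the capitals mark the GGGCGG word, read on the other strand, that lies just before the listed start. No GRIN2A summit fell in its promoter window, so no sequence at a GRIN2A summit is given.
GRIN2B inner start: cggggtgggAGGCGGCGCTGctgctggag
GRIN2D: gtgtgtgtgCGAGAACACAGcgagtgtgtg
GRIN2A: tccttctctcctCCGCCCcgttagagccct

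Short words were searched on both strands of the 300-base windows as exact letters. GGGCGG, the core of the SP1 box, was found in 5 of the 7 members' windows, against 45.0% of 35116 RefSeq promoter windows: once or more at GRIN2A, GRIN2D and GRIN3B and at the outer and middle GRIN2B starts. GGACAG, the right part of the REST site, was found only in the GRIN2D window of these 7, against 20.5% of all windows. The E-box CAGATG (14.7% of all windows), the CRE TGACGTCA (1.85%), the left REST part TTCAGCACC (0.376%) and the full REST site (0.0142%), which holds both parts with a short gap, had no match in any of the 7. GC content ranged from 60.0% at GRIN3A to 73.7% at GRIN3B, against a median of 58.7% over all windows. CpG dinucleotides were most frequent at the innermost GRIN2B start, with 36, and least frequent at GRIN2D, with 8, where the median window held 14.

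Start regions were accessible in 6 of the 7 genes. A start was called accessible when the strongest summit of a region lay within 1 kb of a listed start or, for genes with no listed start, of either outer end. By the same rule 68.4% of the 20037 protein-coding genes were called (13709 genes), 71.2% of those with a listed start and 57.8% of those judged by outer ends. The 5 members with a listed start were all called, and of the other two GRIN1 was called and GRIN2C was not. With 7 genes this share is a description beside the background, and the calls are not evidence of anything particular to the receptor.

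Strength at listed starts was below that of the typical accessible gene in all 5 members called there. Strength is given as the authors' fold enrichment, a ratio of the tags at the summit to the tags expected from a local background, and as the tag count recovered from it. The median over 11284 protein-coding genes with an accessible listed start was 10.9 in fold enrichment and 998 in tags. GRIN3A reached 8.31 with 609 tags (exact Poisson 95% interval 562 to 659), GRIN2A 7.45 with 662 tags (613 to 714), and GRIN2B 5.77 with 432 tags (392 to 475). GRIN2D followed at 3.62 with 301 tags (268 to 337) and GRIN3B at 3.03 with 172 tags (147 to 200). In fold enrichment they stood at percentiles 30.2, 24.2, 14.3, 3.62 and 1.29 of these accessible genes. By tags GRIN2A and GRIN3A changed places, at percentiles 30.1 and 27.1, and their intervals overlapped. The intervals of GRIN2B, GRIN2D and GRIN3B did not overlap with those or with each other. The libraries were amplified by PCR and no molecular identifiers are mentioned, so all intervals here cover counting error only.

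**Figure D1:**
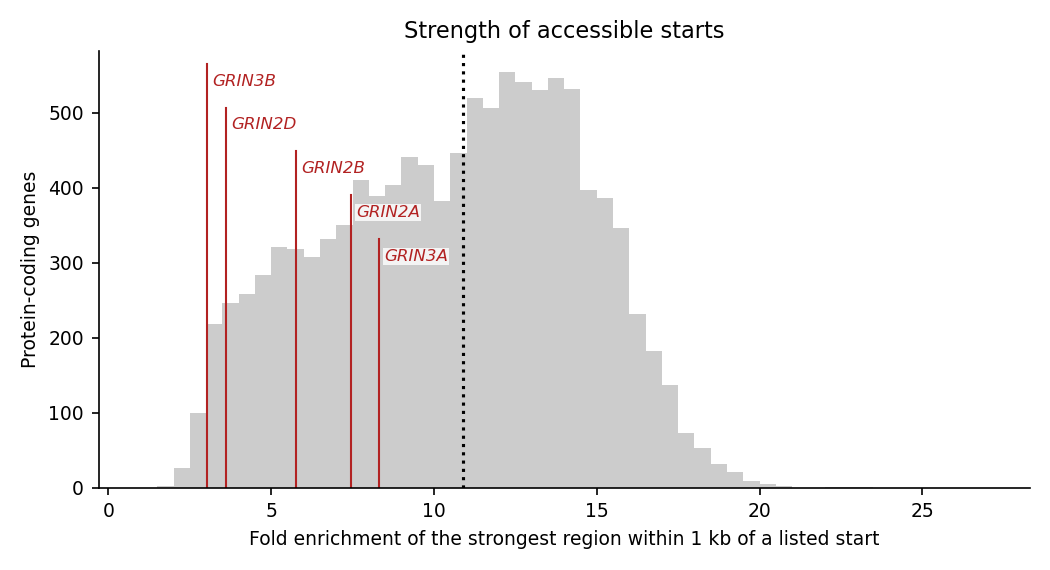
Histogram of the fold enrichment of the strongest region within 1 kb of a listed start, over the 11284 protein-coding genes with such a region (x axis, fold enrichment; y axis, genes), with the median dotted and the 5 NMDA receptor genes with a listed start as red lines. All 5 red lines, from 3.03 for GRIN3B to 8.31 for GRIN3A, lie left of the median of 10.9.

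GRIN1, the obligatory subunit, was open at both outer ends by this rule, in neither case strongly. No strand was read for GRIN1, so which of these ends is its start was not decided. The region over its lower-coordinate end, chr9:137137864-137139564, had 4 summits. The strongest lay 880 bp outside the gene, at a fold enrichment of 3.75 and 200 tags (173 to 230), and the other three lay within 366 bp of the end, at 2.02, 2.46 and 2.66. At the higher-coordinate end, chr9:137168653-137169977 reached 5.12 with 401 tags (363 to 442), but its summit also lay within 1 kb of an end or start of LRRC26 and MIR3621. That region cannot be assigned to GRIN1 alone. No region had its strongest summit inside the 29.6 kb of GRIN1, as in 1322 of 2689 protein-coding genes of similar length (within 25%).

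GRIN2B and GRIN2A, the juvenile and the mature partner of GluN1, differed in how their start regions were built. Both genes lie on the minus strand and both starts sat in wide regions, 2312 bp for GRIN2B (chr12:13980202-13982513) and 2445 bp for GRIN2A (chr16:10181308-10183752). The GRIN2B region covered 3 listed starts, at the outer end of the gene, 532 bp inside it and 1289 bp inside it. Its strongest summit, 5.77 in fold enrichment, lay 35 bp downstream of the innermost start. A second summit of 5.48 with 399 tags (361 to 440) lay 88 bp upstream of the outermost start, and the intervals of these 2 summits overlapped. The other three, at 2.88, 2.45 and 1.86, lay between them or further in. GRIN2B was thus about equally accessible at the first and the last of its listed starts, with lower summits around the middle one.

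In GRIN2A a single summit stood out. The table lists 1 start, 841 bp inside the outer end of the gene, and the strongest of 7 summits lay 320 bp downstream of it, at 7.45. The next was 3.44 with 304 tags (271 to 340), 1351 bp upstream of the listed start and outside the gene. The summits nearest to the listed start and to the outer end were lower: 3.04 at 74 bp downstream of the start, and 2.75 at 853 bp upstream of it. The GRIN2B start collected 0.653 times the tags of the GRIN2A start at the strongest summit (exact conditional 95% interval 0.577 to 0.738). In fold enrichment the ratio was 0.774, with a GRIN2B background 0.843 times that of GRIN2A. At the start, then, the gene of the mature subunit had the higher summit in this list.

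**Figure D2:**
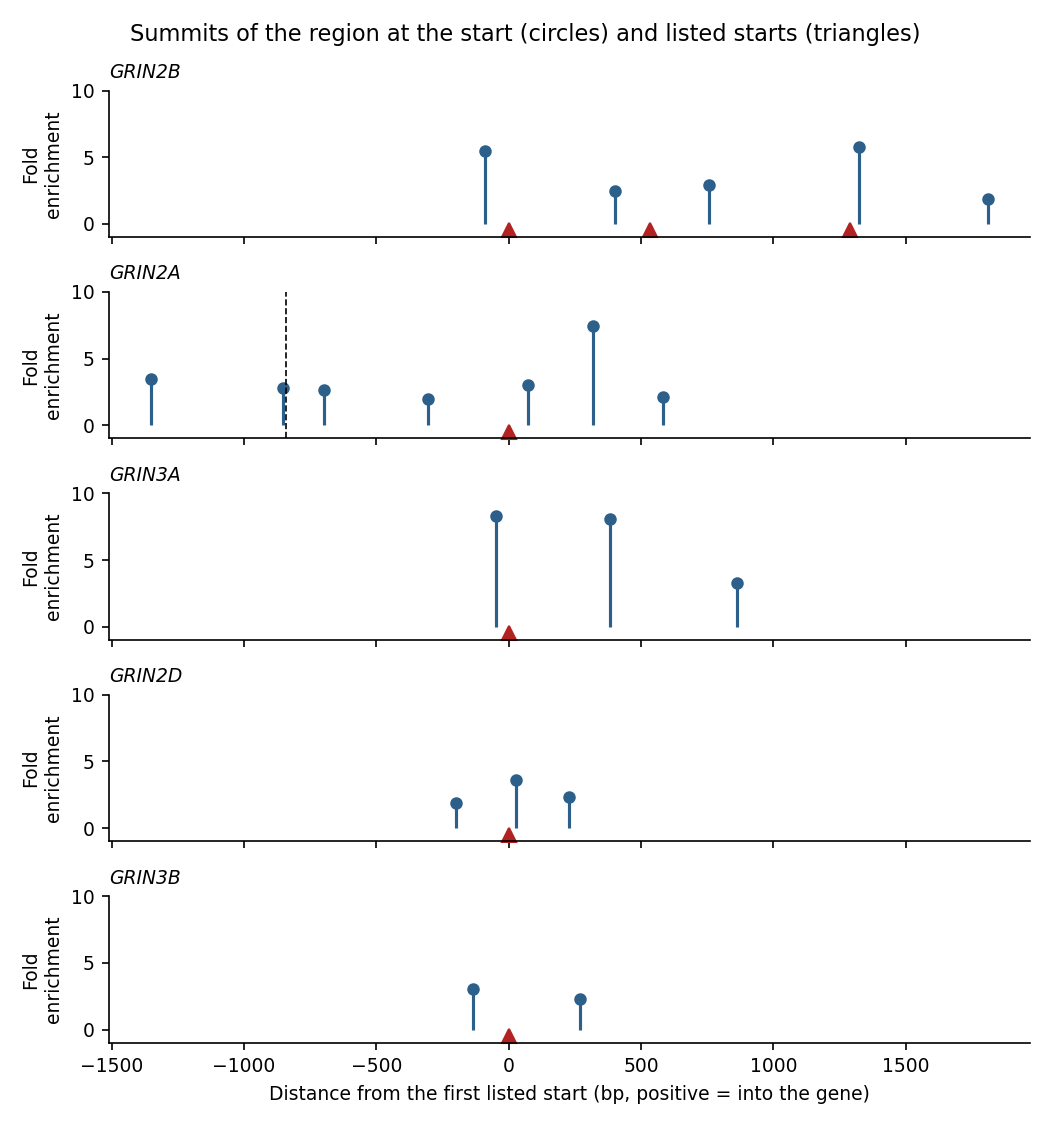
Fold enrichment (y axis) of every summit in the region at the start of 5 NMDA receptor genes, against distance from the first listed start in bp (x axis, positive into the gene). Triangles are listed starts and the dashed line is the outer end of GRIN2A. GRIN2B shows high summits at the first and last of 3 starts, 5.48 and 5.77, and GRIN2A shows 1 summit of 7.45 above 6 summits of at most 3.44.

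Over the whole gene body the order was the other way round. GRIN2B and GRIN2A have nearly the same length, 445 and 430 kb, a ratio of 1.04. GRIN2B held 19 regions, or 4.27 per 100 kb, and GRIN2A held 8, or 1.86 per 100 kb. The ratio of these densities was 2.29, and regions covered 4.20% of GRIN2B against 1.70% of GRIN2A. If regions are treated as independent counts, the exact conditional 95% interval of that ratio is 0.959 to 6.06, so counts of this size do not separate the densities of the 2 genes. Set beside 397 protein-coding genes of similar length (within 25%), with a median of 9 regions, GRIN2B was at percentile 93.6, with 369 genes below it and 23 above. GRIN2A was at percentile 43.4 of 417 such genes, whose median was also 9. GRIN2A was thus near the middle for its length and GRIN2B in the upper tail.

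**Figure D3:**
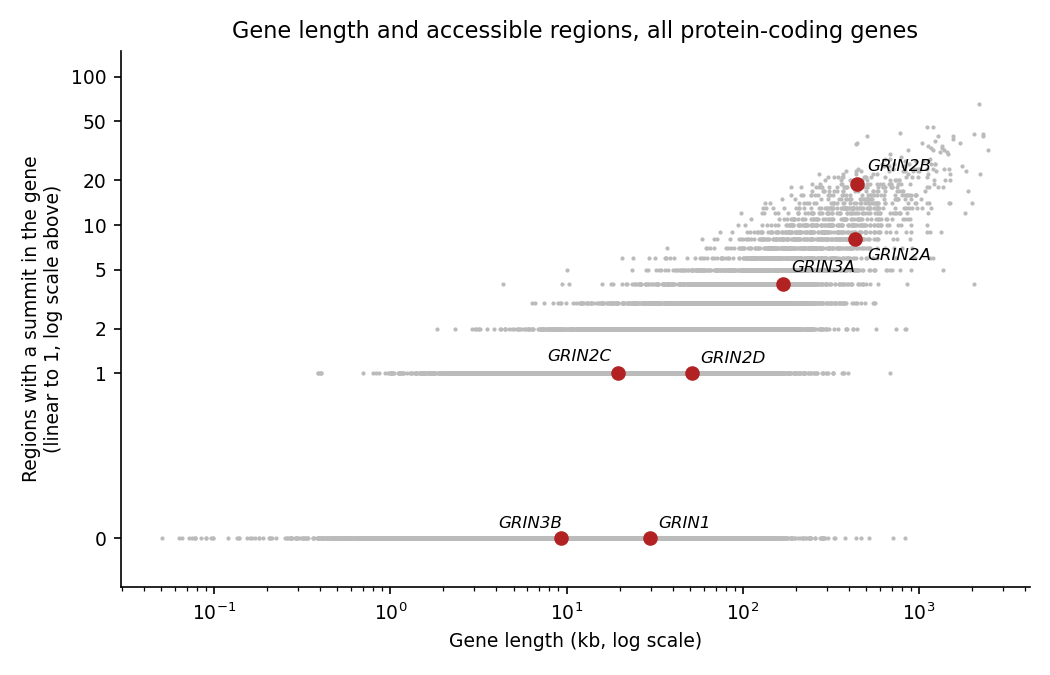
Number of regions with their strongest summit in the gene (y axis, linear up to 1 and logarithmic above) against gene length in kb (x axis, logarithmic) for all 20037 protein-coding genes in grey, with the 7 NMDA receptor genes in red. GRIN2B with 19 regions sits near the upper edge for its length and GRIN2A with 8 near the middle.

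Leaving the start regions aside, GRIN2B had 18 intragenic regions. The strongest, chr12:13727437-13728348, lay 254 kb into the gene and reached 12.4 with 820 tags (765 to 878). Those at 130, 166 and 321 kb, chr12:13851775-13852409, chr12:13815899-13817499 and chr12:13661097-13661780, reached 11.0 with 571 tags (525 to 620), 10.8 with 406 tags (367 to 447) and 10.7 with 323 tags (289 to 360). In fold enrichment 8 of the 18, these 4 among them, exceeded the 5.77 of the GRIN2B start, and 3 of the 18 also had more tags than its 432. Among all 46649 distal regions, those over 1 kb from any gene end or listed start, the 4 strongest stood at percentiles 98.4, 96.3, 95.9 and 95.8 in fold enrichment. By tags the same 4 regions stood lower, at percentiles 97.5, 93.8, 86.1 and 77.7. Their backgrounds were 65.3, 51.1, 36.8 and 29.2 tags, against 74.1 at the GRIN2B start. The last of these, 29.2, is the lowest background in the list.

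The other 14 regions of GRIN2B had fold enrichments under 10. At 40.2, 118, 242 and 296 kb the fold enrichments were 7.98, 7.51, 6.33 and 6.15. At 182, 146, 237 and 22.6 kb they were 5.26, 5.08, 4.89 and 4.70. The remaining 6, at 412, 34.3, 232, 280, 386 and 402 kb, had 3.96, 3.90, 3.67, 3.57, 3.57 and 3.24. Of these, the regions at 386 and 146 kb lay in LOC105369668 and LOC105369667, annotated inside GRIN2B. The strongest region was one of 4 spaced over chr12:13727437-13749994, whose other fold enrichments were 6.33, 4.89 and 3.67. The exon structure was not used here, so regions are placed by distance only.

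GRIN2A had 7 regions besides its start. The strongest, chr16:9820214-9821707, lay 361 kb into the gene with 4 summits and reached 9.16 with 590 tags (543 to 640), percentile 90.6 of all distal regions. Next came chr16:10038958-10039848 at 143 kb with 6.65 and 307 tags (274 to 343), and chr16:9885139-9886254 at 296 kb with 5.59 and 168 tags (144 to 195). The other four, at 178, 103, 101 and 346 kb, had 3.87, 3.56, 3.45 and 3.31. As in GRIN2B, the strongest element by fold enrichment lay far from the start, though its tags were fewer than the 662 at the GRIN2A start.

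The 2 genes overlapped in strength. Their spacing is described here too, and it depends in part on the number of regions, 18 in GRIN2B and 7 in GRIN2A. Intragenic fold enrichment ran from 3.24 to 12.4 with a median of 5.17 in GRIN2B, and from 3.31 to 9.16 with a median of 3.87 in GRIN2A, where the median of all distal regions was 5.07. A fold enrichment over 10 was reached by 4 of the 18 GRIN2B regions and none of the 7 GRIN2A regions, and by 6.24% of all distal regions. Median tags were 191 and 128, against 197 for all distal regions. The nearest intragenic region was 22.6 kb from the start in GRIN2B and 101 kb in GRIN2A. Within the first 50 kb GRIN2B had 3 regions and GRIN2A none. The longest stretch without a region was 76.5 kb in GRIN2B and 117 kb in GRIN2A. In the flanks, GRIN2B had 1 region on each side, 2379 and 44665 bp from the gene, at 5.41 and 4.67, and GRIN2A had none.

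**Figure D4:**
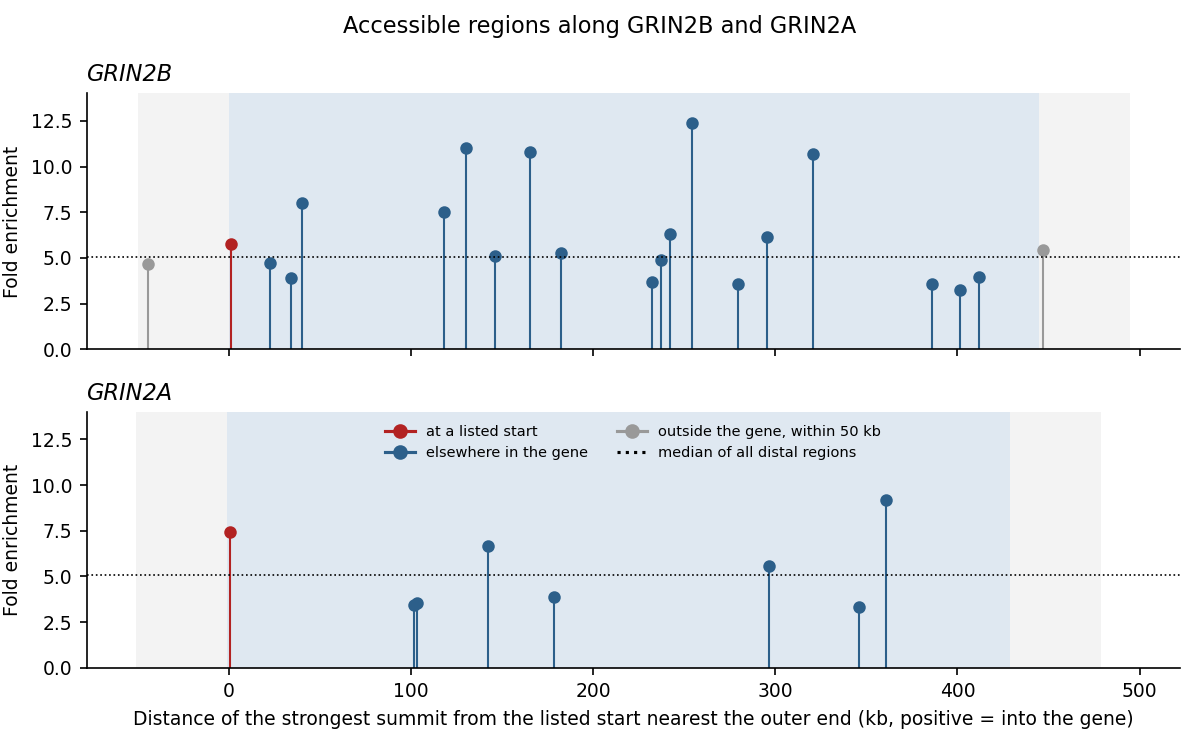
Fold enrichment of each region (y axis) against distance of its strongest summit from the outermost listed start in kb (x axis, positive into the gene) for GRIN2B and GRIN2A. Blue shading marks the gene, grey shading the 50 kb beyond it, red the region at the start and the dotted line the median of all distal regions. GRIN2B has 18 regions away from its start with 4 above a fold enrichment of 10, and GRIN2A has 7 with a highest value of 9.16.

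GRIN2D and GRIN2C, the other GluN2 genes, are short and had 1 region each in the gene body. For its length GRIN2D was at percentile 52.0 of 2503 genes. GRIN2C was at percentile 72.5 of 2604 genes, and its 5.13 regions per 100 kb, from that single region, is the highest density of the 7 members. GRIN2D, of 51.3 kb, had as its region the one at its start (chr19:48393371-48394132), whose strongest summit lay 27 bp downstream of the listed start. Its 3 summits were 1.88, 3.62 and 2.35, and KDELR1 overlaps this position, which leaves the gene it belongs to undecided. A stronger region beside it, 2085 bp upstream at 7.83 with 597 tags (550 to 647), lay at an end or start of KDELR1. At the other end of GRIN2D, 998 bp beyond the gene, chr19:48444975-48446436 reached 10.6 and lay within 1 kb of an end or start of GRWD1. The region of GRIN2C, a gene of 19.5 kb, was chr17:74842510-74843212, at 3.79 with 194 tags (168 to 223). The strongest of its 2 summits was 1044 bp inside the lower-coordinate end, just past the 1 kb limit. At the higher-coordinate end the nearest region lay 3545 bp outside the gene, over FDXR, at 3.70. Neither end had the strongest summit of a region within the limit, so GRIN2C was not called. No strand was read for GRIN2C, so which of its ends is the start was not decided. The strongest region near GRIN2C, 11.9 with 1875 tags, lay 11721 bp away at an end or start of FDXR.

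Of the glycine-binding GluN3 genes, GRIN3A was the more accessible. Its start region, chr9:101737566-101738986, had 3 summits. The strongest, 8.31, lay 48 bp upstream of the listed start, and a second of 8.07 with 595 tags (548 to 645) lay 381 bp downstream, within counting error of the first. Inside the 169 kb of the gene were 4 further regions, at percentile 58.3 of 1251 genes of similar length. The strongest, chr9:101601677-101603001, lay 136 kb into the gene at 9.09 with 370 tags (333 to 410). In fold enrichment this region exceeded the GRIN3A start, over a background of 39.8 tags against 72.4, but in tags it was lower, 370 against 609. Regions at 10.8, 70.1 and 33.4 kb into GRIN3A had 7.02, 4.98 and 3.36.

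GRIN3B, a compact gene of 9.31 kb, had the weakest start of the members called. Its region, chr19:1000142-1001001, had summits 134 bp upstream and 271 bp downstream of the listed start, at 3.03 and 2.27. No region had its strongest summit inside the gene, as in 1438 of 2105 genes of similar length. The other 5 regions in its window, from 4.52 to 11.0, all lay at an end or start of other genes: WDR18, TMEM259, CNN2 and ABCA7.

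The flanks mostly held regions at the ends or starts of other genes. Of the 26 flank regions over all 7 genes, 15 lay within 1 kb of an end or start of another gene, 4 at a start or end of the member itself (1 of them in both classes, at GRIN1 and LRRC26) and 8 at neither. Of these 8, the regions at GRIN2C, GRIN2D and GRIN3A had their strongest summits inside other genes: FDXR, TMEM143, LMTK3 and PGAP4. Those at GRIN1 and GRIN2B lay inside no other gene. The strongest of the 8 was chr9:137129080-137130605, 9371 bp from GRIN1, with 14.7 in fold enrichment and 1167 tags (1101 to 1236), percentile 99.6 of all distal regions. At the edge of the rule, the outermost flank regions of the 6 genes that had any lay between 11.7 kb (GRIN2C, 11.9) and 45.0 kb (GRIN2D, 4.22) from their genes. The nearest regions outside lay between 50.4 kb (GRIN2C, 6.95) and 74.0 kb (GRIN2A, 4.67).

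Genes that act with the receptor were read from a list of 19 partners. It holds scaffolds of the postsynaptic density (DLG1 to DLG4, SHANK1 to SHANK3, HOMER1, DLGAP1), signalling proteins (CAMK2A, CAMK2B, NOS1, RASGRF1, PPP3CA), enzymes that make or degrade the co-agonist D-serine (SRR, DAO), and EPHB2, NETO1 and RELN. An accessible start was found for 15 of the 19, against the 68.4% of all protein-coding genes. The 4 without one were SHANK3, DLGAP1, NOS1 and DAO. Of these, DLGAP1, a gene of 959 kb, contained 27 regions, against a median of 16 in genes of similar length. DAO, of 21.0 kb, contained none, and the median at its length was 0. Median fold enrichment at the accessible starts was 8.70 for the partners, 5.44 for the 6 NMDA receptor genes and 10.6 for all protein-coding genes. The 5.44 uses the GRIN1 end shared with LRRC26 and MIR3621, and with the other end of GRIN1 it is 4.76. DLG2, which encodes the scaffold PSD-93, had the highest start of the list, 16.0. It held 66 regions in its 2173 kb, against a median of 24 at similar length. DLGAP1 with 27 and SHANK2, a scaffold gene of 785 kb, with 19 came next in number. For SHANK2 the median at similar length was 15.

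Markers of the labelled cell type were read by the same rule, under which 68.4% of all protein-coding genes have an accessible start, with a median fold enrichment of 10.6. All 8 pan-neuronal genes had one (MAP2, TUBB3, RBFOX3, SYT1, SNAP25, STMN2, DCX and MAPT), with a lower median of 7.12. The glutamatergic transporter gene SLC17A6 had one at 4.27 and SLC17A7 had none. Of the GABAergic markers GAD2 (5.08) and SLC32A1 (2.48) had one and GAD1 had none. The pluripotency genes POU5F1 and NANOG had none, and of the glial markers OLIG2 (6.76) and AQP4 (3.87) had one and GFAP and CX3CR1 had none. Open starts were thus not limited to markers of glutamatergic neurons, and with 2 to 4 genes in each of these lists the counts do not tell cell types apart. An open start is not a measure of transcription, and the part of other cell types in the receptor gene values was not tested.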

How the data were processed

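ATAC-seq was carried out on 3 replicates of KOLF2.1J-hNGN2 neurons at day 14, and 1 list of peaks for all of them, named in the labels as the IDR optimal set, was analysed. The build was hg38, per the submitters' processing notes, and the aligner and peak caller are not given in the sources used here. The deposited list gives the authors' fold enrichment as a linear ratio, their −log10 p, a score of unstated scaling, and positions, all for pooled samples. Summit entries that share an interval were joined into 1 region, kept at the summit of highest −log10 p. Tag counts were recovered by solving the ratio, with a pseudocount of 1, and a Poisson upper tail for p. All 145092 entries gave a whole number to within 0.000790 units of −log10 p, from 58 to 3783 tags. The depth per replicate is unknown.

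Starts came from the RefSeq promoter table (GRCh38.p14), which lists one for 79.1% of protein-coding genes, and other genes were judged by both outer ends. Percentiles of region counts count ties as 0.5. Named are every member with the region at its start and its strongest intragenic regions, all intragenic regions of GRIN2A and GRIN2B, and the partner genes without an accessible start or with the most regions. Members and lists were chosen with earlier results of these data known, and no p-value is given. One further gene intended for the partner list is not reported here. Intervals are 95% exact Poisson or Clopper-Pearson intervals. Python 3.11.15, numpy 2.4.6, scipy 1.17.1, pandas 2.3.3 and matplotlib 3.10.9 were used, and the tag recovery was tested on simulated data. Alternatives were a score of at least 830, regions above the median fold enrichment, every summit entry, other windows and flanks, overlap of 1 bp, regions at other genes left out and a narrower length class.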

Additional observations from a re-analysis of the deposited data

How the results depend on the processing

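Of 72 values recomputed for 14 results, 44 stayed within the limit set for them and 28 moved. Most of these values are counts, which have no direction that could change. The 59 regions of the members became 29 above the median fold enrichment, 147 with every summit entry counted and 96 within 100 kb, which follows from how many entries or how much sequence each setting admits. The 6 accessible starts became 3 above the median fold enrichment (GRIN2A, GRIN2B and GRIN3A kept theirs, against 58.2% of all protein-coding genes). They became 5 at a score of at least 830 (without GRIN3B, against 66.9%) and 5 within 500 bp (without GRIN1, against 63.8%). All 7 were called within 2 kb (against 71.7%) or by any overlap (against 70.5%). The call for GRIN2C therefore rests on the window and on the use of the strongest summit. Both of these settings reach only the region at its lower-coordinate end, which was not shown to be its start. The density of regions in GRIN2B over GRIN2A ranged from 2.24 with every summit entry (44 and 19) to 2.90 above the median fold enrichment (9 and 3), with 2.29 in the report. With a length class of 10% the percentiles were 92.5 for GRIN2B and 41.8 for GRIN2A. Partner genes with an accessible start numbered 12 to 15 of 19. They were 12 above the median fold enrichment (58.2% of all protein-coding genes) and 14 at a score of at least 830 (66.9%). Within 500 bp there were 14 (63.8%), and within 2 kb 15 (71.7%). No paired analysis was possible because only pooled values of 1 group were analysed, and no replicate could be left out for the same reason.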
